A study of Sus scrofa with 23 samples.

Results

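TEAD4 and CCN2 were followed through 23 RNA-seq libraries of porcine oocytes and pre-implantation embryos. They are 2 of the 8603 genes in the deposited table, chosen by name and identifier (TEAD4, ENSSSCG00000000736; CCN2, also called CTGF, ENSSSCG00000004192). The 3 groups were in vivo fertilized Duroc embryos (IV-D, 8 libraries), clones of Duroc donor cells (NT-D, 8 libraries) and clones of Laiwu donor cells (NT-LW, 7 libraries), Laiwu being a Chinese breed. The stages were the oocyte in metaphase of the second meiotic division, the 1-cell, 2-cell, 4-cell and 8-cell embryo, the morula, and 2 parts of the blastocyst cut by hand, of which TE is trophectoderm and IT holds the inner cell mass with some trophectoderm. Each library pooled several oocytes or embryos, and each condition had 1 library in the table used here, so that no p-value between conditions could be given and intervals cover counting error only. Further replicates that the study describes for some stages were not analysed here. The IV-D oocyte library held unfertilized oocytes that had matured in vivo in 2-year-old Duroc sows. IV-D embryos were flushed from inseminated Duroc sows and were all sired by 1 Duroc boar. That boar also gave the donor cells of NT-D, a Laiwu boar gave those of NT-LW, both boars were yearlings, and both donor lines were ear fibroblasts of a few passages. All clones are therefore male and derive from 1 animal per breed, whereas IV-D pools can hold both sexes, and clones were cultured in vitro in PZM3 medium at low oxygen. The in vitro matured recipient oocytes, which the label calls Duroc and the study's methods describe as coming from hybrid sows, were the oocyte stage of NT-D and are shared by both clone groups. The clone groups are also set against the same IV-D libraries. In NT-D against IV-D, where donor and sire are the same boar, nuclear transfer, culture in vitro, oocyte source and sex of the embryos cannot be told apart. NT-LW against NT-D shares these and differs in the donor breed, which cannot be told apart from the single donor animal. NANOG, an inner cell mass marker, was 3.76 to 9.80 FPKM in the 3 IT libraries and listed at 0 in the 3 TE libraries. Summed over 5 inner cell mass markers, IT and TE lay closer together in clones. The sums were 67.9 and 22.9 in IV-D, 50.7 and 38.1 in NT-D, and 50.8 and 45.6 in NT-LW. The trophectoderm keratin KRT8, which can share reads with near-identical copies, was high in both parts, at 441.2 to 626.0 in IT and 549.0 to 1033 in TE.

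TEAD4 is a DNA-binding transcription factor of the TEAD family. In the Hippo pathway the kinases STK3, STK4, LATS1 and LATS2 keep the coactivators YAP1 and WWTR1 out of the nucleus, and where the kinases are inactive these coactivators enter the nucleus, bind TEAD proteins and switch on target genes. In the mouse embryo TEAD4 and YAP1 act in outer cells to start the trophectoderm programme. CCN2 (connective tissue growth factor) is a secreted matricellular protein and one of the standard readouts of YAP1 and TEAD activity, with short TEAD elements in its promoter. It is also induced by TGF-beta and is abundant in fibroblasts.

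The 250 bases before the RefSeq start of CCN2 are shown because this window carries the TEAD elements through which CCN2 is commonly used as a readout. They lie on Sscrofa11.1 at chr1:31674148-31674397, on the plus strand, and the capitals mark the TEAD element CATTCC or its reverse complement GGAATG.
CCN2 upstream window: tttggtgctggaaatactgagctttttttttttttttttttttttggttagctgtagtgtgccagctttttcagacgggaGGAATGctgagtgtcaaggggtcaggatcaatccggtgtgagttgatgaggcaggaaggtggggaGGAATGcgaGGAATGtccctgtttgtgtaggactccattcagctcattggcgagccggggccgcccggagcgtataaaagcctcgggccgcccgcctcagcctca
The window held 3 such elements, all read on the minus strand, at -170 to -165, -105 to -100 and -96 to -91 from the start. Of 19556 windows of the same length before protein-coding genes, 10.3% held at least 1 element and 8 held 3 or more. The gene itself runs from chr1:31674398-31677697 with 5 exons, and RefSeq lists it as CTGF. TEAD4 lies at chr5:67130392-67167579 on the minus strand and had no match to these letters in its own window. No other protein-coding RefSeq gene overlaps either of them. The CCN2 length behind the deposited values was 4598 bases, longer than the RefSeq gene span of 3300 bases. For TEAD4 it was 2488 bases, against 1473 bases of RefSeq exons. The annotation used for counting was not at hand, so which bases were counted is not known. The libraries were made with a kit that does not mark strand.

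In IV-D embryos TEAD4 appeared at the 4-cell stage and was near its highest level from the 8-cell stage to the morula and in IT. In units of FPKM (fragments per kilobase, corrected for library depth), TEAD4 in IV-D was 0.132 in the oocyte, 0.121, 0.175 and 1.70 in 1-cell, 2-cell and 4-cell embryos. It was then 14.5 at the 8-cell stage, 16.2 in the morula, 14.3 in IT and 8.52 in TE. The first 3 of these values rest on 5 to 10 fragments each and the 8-cell value on 739. A gene was called changed if its log2(FPKM + 1) values were over 1 apart and the larger FPKM was 1 or more. By that rule TEAD4 rose between 2-cell and 4-cell embryos by 1.20 on the log2 scale, a 9.72-fold ratio (95% interval 4.97 to 21.2), a step at which 34.4% of genes tested were called higher. It rose again to the 8-cell stage by 2.52, or 8.51-fold (6.62 to 11.1), where 35.0% of genes were called higher and the median of all genes was 0.25. From 8-cell embryo to morula the log2 difference of 0.15 was not called. TE was 1.9-fold below the morula, a log2 difference of -0.85 that was not called and became -1.06, and called, with rescaling to a common sum. The first call depends on the minimum level, since it was lost when FPKM of at least 5 was required.

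**Figure D1:**
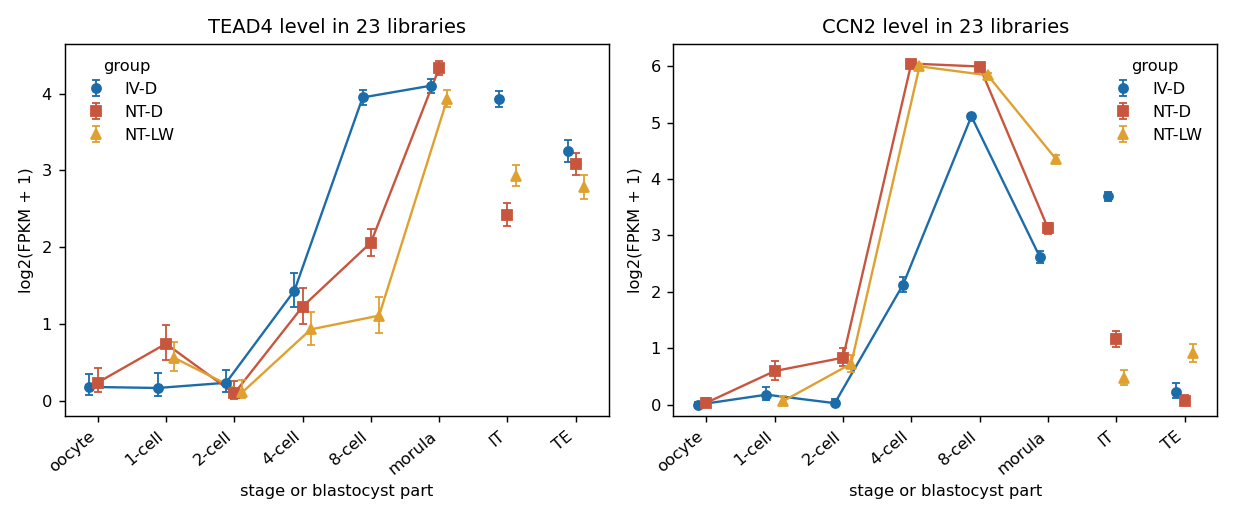
TEAD4 (left) and CCN2 (right) as log2(FPKM + 1) by stage and blastocyst part in the 23 libraries. Points are single libraries, bars are 95% Poisson intervals of the fragment number, and lines join stages up to the morula within IV-D, NT-D and NT-LW. TEAD4 in 8-cell clones lies at 3.17 and 1.15 FPKM below the IV-D value of 14.5, and CCN2 in 4-cell clones at 65.0 and 62.8 FPKM above the IV-D value of 3.37.

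In clones the larger rise of TEAD4 came between the 8-cell stage and the morula. NT-D levels of TEAD4 were 0.177 in the oocyte, 0.672, 0.0666, 1.34 and 3.17 FPKM at the 1-cell, 2-cell, 4-cell and 8-cell stages, 19.2 in the morula, 4.36 in IT and 7.47 in TE. NT-LW levels of TEAD4 were 0.472, 0.0793, 0.903 and 1.15 FPKM between 1-cell and 8-cell embryos, 14.3 in the morula, 6.64 in IT and 5.90 in TE. Both 8-cell clone libraries lay below IV-D, and in the morula the 3 groups lay between 14.3 and 19.2.
Between 2-cell and 4-cell embryos TEAD4 rose in NT-D by 1.13 (17.3% of genes called higher), again only without the higher minimum, and the NT-LW difference was 0.82. Between 4-cell and 8-cell embryos the differences of 0.83 in NT-D and 0.18 in NT-LW were not called. The NT-D ratio was 2.37-fold (95% interval 1.71 to 3.33), and with a pseudocount of 0.1 its difference became 1.18 and was called. From 8-cell embryo to morula TEAD4 rose 6.05-fold in NT-D (95% interval 5.09 to 7.23; 31.6% of genes called higher). The same step in NT-LW was a 12.4-fold rise (9.19 to 17; 22.4% of genes called higher).

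Set against IV-D at the same stage, TEAD4 was lower in both clone groups at the 8-cell stage and in IT. In 8-cell NT-D it was 4.56-fold lower (95% interval 3.83 to 5.47), or -1.89 on the log2 scale, where 17.4% of genes tested were called lower. In 8-cell NT-LW it was 12.5-fold lower (9.32 to 17.2), or -2.84, where 17.3% were called lower. Of all genes tested, 4.48% in NT-D and 1.67% in NT-LW had a log2 difference below that of TEAD4. The difference between the clone breeds at that stage, -0.95 for NT-LW against NT-D, was not called. It was a 2.74-fold ratio (95% interval 1.97 to 3.89), below which 2.45% of genes lay, and it was called with a pseudocount of 0.1 (-1.38) and with rescaling to a common sum (-1.10). At the 4-cell stage the differences from IV-D were -0.21 and -0.50, in the morula 0.23 and -0.17, and in TE -0.17 and -0.47, none of them called.

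**Figure D2:**
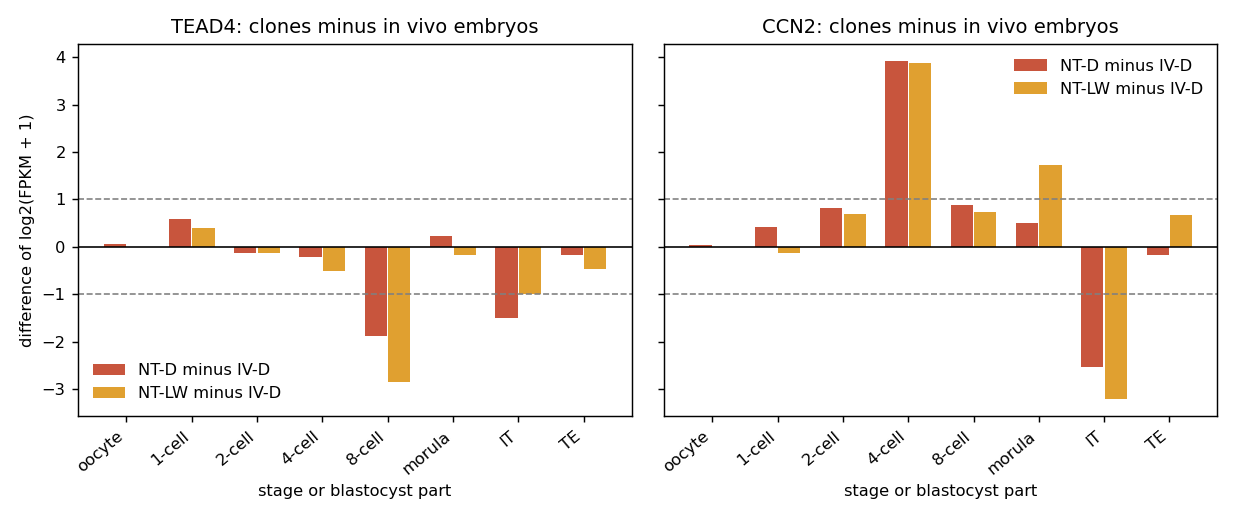
Difference of log2(FPKM + 1), clones minus in vivo embryos, for TEAD4 (left) and CCN2 (right) at each stage and blastocyst part, 1 bar per clone group. Dashed lines mark the differences of -1 and 1 used in the calls, and NT-LW has no oocyte library of its own. TEAD4 reaches -1.89 and -2.84 at the 8-cell stage, and CCN2 3.92 and 3.87 at the 4-cell stage.

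Of the TEAD family and its cofactors, 6 of 10 listed genes are in the table. Like TEAD4, WWTR1 and VGLL2 were lower in 8-cell clones, and no call was made for TEAD1, YAP1 or VGLL3. Counting TEAD4, 3 of the 6 tested were lower in each clone group at the 8-cell stage and none was higher. The study itself names TEAD4 and VGLL2 among factors suppressed in its 8-cell Duroc clones. VGLL2 reached 1 FPKM in 8-cell IV-D alone, so it was tested only through the library in which it was high. The count is therefore no independent result about the set. Over all genes 17.4% and 17.3% were called lower there. The medians of the 6 were -1.35 in NT-D and -1.12 in NT-LW beside -0.12 and -0.02 over all genes. WWTR1, the coactivator also called TAZ, was 15.8 FPKM in 8-cell IV-D, 3.07 in NT-D and 5.93 in NT-LW. The ratios were 5.13-fold lower (95% interval 3.96 to 6.73) and 2.66-fold lower (2.15 to 3.31). WWTR1 was already higher in 4-cell NT-D, at 5.03 FPKM against 0.704 in IV-D, and NT-LW was 1.48 there, which was not called. In the morula WWTR1 stood at 46.9, 29.6 and 59.8 in IV-D, NT-D and NT-LW.
VGLL2, a vestigial-like protein that binds TEAD factors, was 9.48 FPKM in 8-cell IV-D and at most 0.745 in every other library. It rested on 252 fragments there against 15 and 14 in the clones. YAP1, the best known TEAD coactivator, had the opposite course, with 14.4 to 49.7 FPKM from oocyte to 2-cell stage in all groups and 2.67 to 5.57 in the blastocyst parts. It fell between 2-cell and 4-cell embryos by 1.67, 1.10 and 2.01 on the log2 scale in IV-D, NT-D and NT-LW. In 8-cell embryos YAP1 was 3.02, 5.38 and 6.70, with differences of 0.67 and 0.94 in clones that were not called.
TEAD1, which binds the same element as TEAD4, was between 1.67 and 21.6 FPKM in all 23 libraries, oocytes included. In 8-cell embryos it was 8.61, 5.38 and 5.03. VGLL3 was 3.16, 1.38 and 1.13 at that stage. In 4-cell embryos 1 of 5 tested was higher in NT-D, which was WWTR1, and 0 of 5 in NT-LW, beside 9.74% and 10.8% of all genes.

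**Figure D3:**
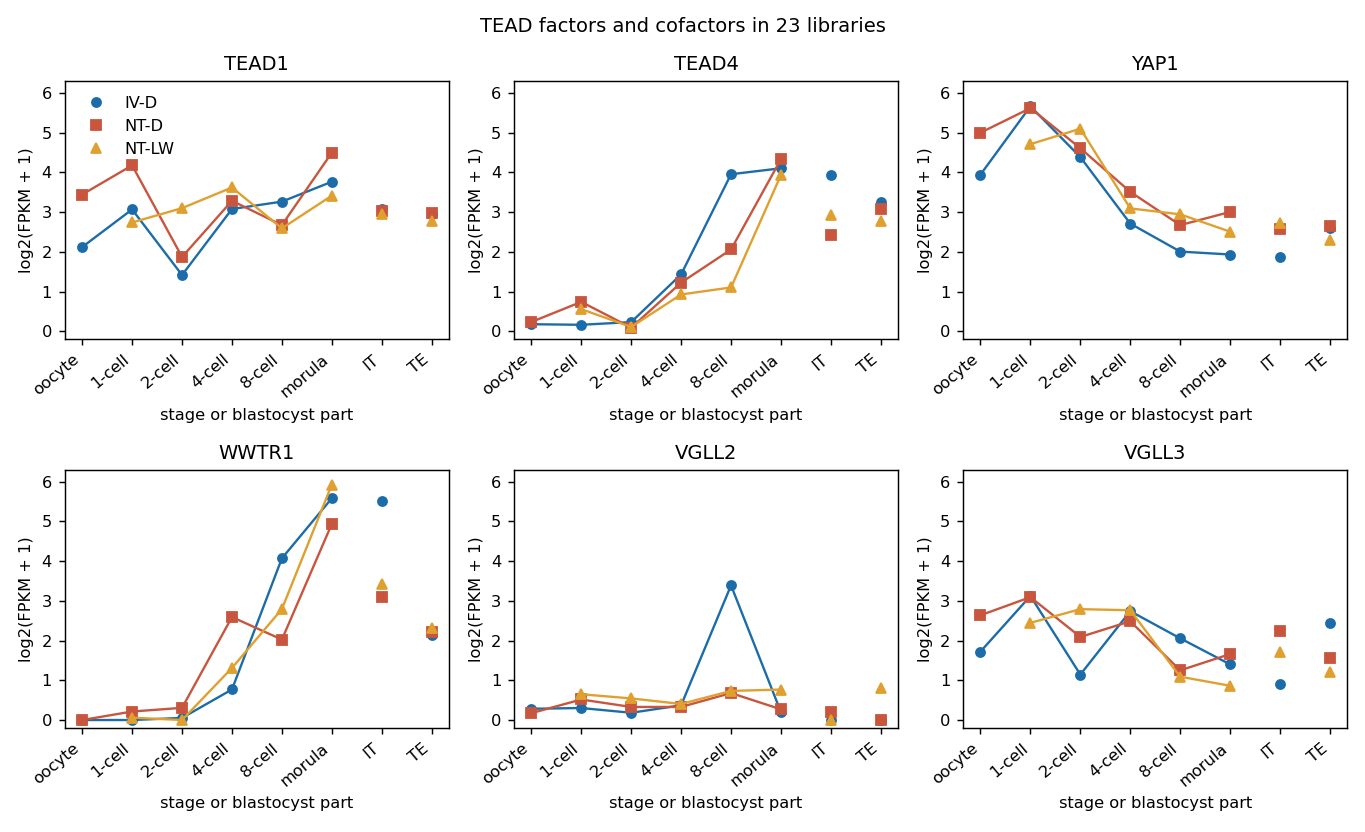
Levels of the 6 TEAD factors and cofactors in the table as log2(FPKM + 1) by stage and blastocyst part, 1 panel per gene and 1 point per library, with lines up to the morula. In 8-cell embryos the IV-D points of TEAD4, WWTR1 and VGLL2 (14.5, 15.8 and 9.48 FPKM) lie above both clone groups, while YAP1 declines after the 2-cell stage in all 3 groups.

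CCN2 was almost absent up to the 2-cell stage and then rose in all groups. Up to the 2-cell stage the 8 libraries held 0 to 0.781 FPKM. In the IV-D oocyte no fragment was counted, which allows a level of up to 0.0306 FPKM. In IV-D the gene was 0.131, 0.0189, 3.37 and 33.5 in 1-cell, 2-cell, 4-cell and 8-cell embryos and 5.16 in the morula. It was thus highest at the 8-cell stage and lower again in the morula. The rise to the 4-cell stage was 2.10 on the log2 scale, from 2 to 246 fragments and likewise lost with the higher minimum, and the rise to the 8-cell stage was 9.93-fold (95% interval 8.72 to 11.4). From 8-cell embryo to morula CCN2 fell 6.49-fold, or by 2.49 on the log2 scale, at a step where 13.6% of genes were called lower.

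In both clone groups CCN2 was near its highest level by the 4-cell stage, whereas in IV-D it was highest at the 8-cell stage. In NT-D it was 0.0239 in the oocyte, then 0.512, 0.781, 65.0 and 62.7 FPKM between 1-cell and 8-cell embryos, and 7.76 in the morula. In NT-LW it was 0.0426, 0.655, 62.8 and 56.2 FPKM between 1-cell and 8-cell embryos, and 19.4 in the morula. The 4-cell clone libraries, with 4494 and 5529 fragments, were thus as high as the 8-cell ones.
Between 2-cell and 4-cell embryos CCN2 rose 83.3-fold in NT-D (95% interval 65.2 to 108.1). The NT-LW rise was 95.9-fold (74.6 to 125.6), at a step where 16.5% of genes were called higher. The log2 differences of 5.21 and 5.27 exceeded those of 99.6% of genes tested in each group. TEAD4 was at 1.34 and 0.903 FPKM in those same 4-cell clone libraries, and at 14.5 in the 8-cell IV-D library in which CCN2 was highest in vivo.

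Compared with IV-D at the 4-cell stage, CCN2 was 19.3-fold higher in NT-D (95% interval 16.9 to 22) and 18.6-fold higher in NT-LW (16.4 to 21.2). On the log2 scale these were 3.92 and 3.87, above 99.9% of the genes tested in each contrast, where 9.74% and 10.8% of genes were called higher. The clone groups differed from each other by only -0.05. The excess was already visible at low level in 2-cell embryos, with 65 fragments in NT-D and 61 in NT-LW against 2 in IV-D, all under 1 FPKM. The 8-cell clones were 1.87-fold and 1.68-fold above IV-D, log2 differences of 0.88 and 0.73 that were not called. With scaling by the median ratio of genes the NT-D value became 1.07 and was called.
In the morula CCN2 was 3.76-fold higher in NT-LW than in IV-D (95% interval 3.4 to 4.17; 11.6% of genes called higher), and the NT-D difference of 0.51 was not called. NT-LW was also 2.5-fold above NT-D there (2.28 to 2.74; 7.02% called higher). In that NT-LW morula library the keratin KRT8, which accumulates towards the blastocyst, was 19.8 FPKM against 142.4 in IV-D and 161.0 in NT-D. It was looked up after its values were seen, and its part in the CCN2 result was not tested. CCN2 fell from 8-cell embryo to morula in both clone groups, by 2.86 in NT-D (12.0% of genes called lower) and 1.49 in NT-LW (12.4%).

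Because the donor cells were fibroblasts, in which CCN2 is abundant, the fibroblast markers were read in the same libraries. Of 18 listed markers 7 were present, and their summed level in 4-cell embryos was 149.9 FPKM in NT-D and 173.8 in NT-LW against 8.74 in IV-D. At that stage 5 of 7 were higher in each clone group, with medians of 1.92 and 1.70, where 9.74% and 10.8% of all genes were called higher. S100A4, a calcium-binding protein of mesenchymal cells, stood at 95.3 and 114.0 FPKM against 0 in IV-D. ACTA2 (smooth muscle actin) stood at 20.4 and 25.9 against 0.8, and COL1A2 (a type I collagen chain) at 14.5 and 15.1 against 1.02. VIM (vimentin) was 9.72 and 8.22 against 1.84. In 8-cell embryos 3 of 4 were higher in NT-D and 4 of 5 in NT-LW, beside 10.8% and 16.3% of all genes.
The marker sum was high in 1-cell and 2-cell clones, and above the 2-cell value again in 4-cell ones. It was 135.3 and 126.1 in NT-D and 146.1 and 102.5 in NT-LW at the 1-cell and 2-cell stages, while CCN2 in those 4 libraries was at most 0.781. Between 2-cell and 4-cell embryos, the step of the CCN2 rise, 1 of 7 markers was called higher in NT-D and 2 of 7 in NT-LW. Over all genes 17.3% and 16.5% were called higher at that step. VIM rose 5.62-fold in NT-D and 3.3-fold in NT-LW, and S100A4 rose 2.37-fold in NT-LW. The part of donor cell RNA in the CCN2 result was not tested. In the 8-cell clones the sum was 32.1 and 30.7 while CCN2 was 62.7 and 56.2. The 1-cell IV-D library also held 71.7 FPKM of these markers, against 5.12 in the 2-cell IV-D library, and its CCN2 level was 0.131. Cumulus and granulosa cell markers, 4 of 14 in the table, summed to 77.9, 74.9 and 73.6 in 4-cell IV-D, NT-D and NT-LW. The same sum was higher in the blastocyst parts, at 178.9 in IT and 240.4 in TE of IV-D, so it cannot be read as a measure of cumulus cells.
Of these markers, HAS2 (hyaluronan synthase) was 2.38, 5.21 and 18.8 in the 4-cell libraries and was called higher in NT-LW alone. That was 1 of 3 tested there and 0 of 3 in NT-D, beside 10.8% and 9.74% of all genes. In 8-cell clones 1 of 3 was higher and 1 lower in each group, namely FST (follistatin) and PTGS2 (prostaglandin synthase). Over all genes 10.8% in NT-D and 16.3% in NT-LW were called higher there, and 17.4% and 17.3% lower.

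**Figure D4:**
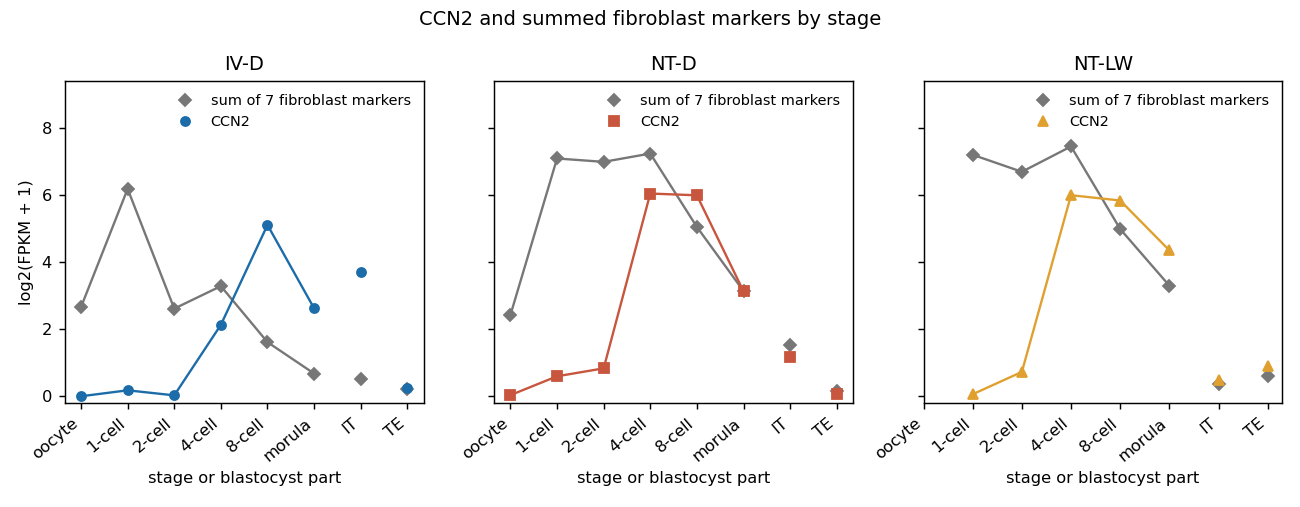
CCN2 and the summed level of 7 fibroblast markers as log2(FPKM + 1) by stage and blastocyst part, 1 panel per group and 1 point per library. In NT-D and NT-LW the marker sum is already 135.3 and 146.1 FPKM at the 1-cell stage, while CCN2 rises to 65.0 and 62.8 FPKM only in the 4-cell library.

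In the blastocyst CCN2 was far higher in IT than in TE in IV-D, and both genes were lower in the IT of clones. CCN2 in IV-D was 11.9 FPKM in IT and 0.175 in TE, a 68.3-fold ratio (95% interval 38.9 to 132.6), and 18.0% of genes were called higher in IT. In NT-D it was 1.24 in IT and 0.0418 in TE, on 121 and 3 fragments, a 29.7-fold ratio (9.92 to 146.0) where 4.32% of genes were called higher. In NT-LW it was 0.394 in IT and 0.887 in TE, both under 1 FPKM. The NT-D call was lost when FPKM of at least 5 was required.
TEAD4 had no call between IT and TE in any group, with log2 differences of 0.68, -0.66 and 0.15 in IV-D, NT-D and NT-LW. From morula to IT CCN2 rose 2.31-fold in IV-D (2.08 to 2.57; 7.70% of genes called higher). It fell by 1.97 in NT-D and by 3.87 in NT-LW, where 35.1% and 28.1% of genes were called lower. From morula to TE CCN2 fell by 2.39, 3.07 and 3.43 in IV-D, NT-D and NT-LW, with 24.6%, 38.5% and 40.3% of genes called lower.

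Against IV-D, CCN2 in IT was 9.6-fold lower in NT-D (95% interval 7.95 to 11.7) and 30.2-fold lower in NT-LW (22 to 42.7). TEAD4 in IT was 14.3 FPKM in IV-D, 4.36 in NT-D and 6.64 in NT-LW, or 3.27-fold lower (2.81 to 3.82) and 2.15-fold lower (1.89 to 2.45). In these contrasts 15.4% and 13.7% of genes were called lower. The NT-LW log2 difference of TEAD4, -1.0, lies at the limit of the call, became -0.95 with median-ratio scaling, and was lost when the interval had to lie beyond 2-fold.
From morula to IT TEAD4 fell by 1.91 in NT-D and 1.0 in NT-LW, and from morula to TE by 1.25 and 1.15. The last 3 of these calls were lost with median-ratio scaling, and the median of all genes in these clone steps was itself between -0.51 and -0.78. WWTR1 was 44.6 FPKM in IT of IV-D, 7.54 in NT-D and 9.67 in NT-LW, called lower in both. In IT the inner cell mass marker PDGFRA was 11.6 in IV-D, 1.66 in NT-D and 2.22 in NT-LW, and NANOG was 9.80, 5.00 and 3.76. The sum of all 5 inner cell mass markers in the table differed less, at 67.9, 50.7 and 50.8. The part of these markers in the differences of CCN2, TEAD4 and WWTR1 was not tested. IT is a mixture, so a smaller share of inner cell mass cells and less RNA per cell cannot be told apart.

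By the rule on log2(FPKM + 1), no other YAP target gene was called higher with CCN2 in 4-cell clones. Of 22 listed targets 14 are in the table, and at the 4-cell stage CCN2 alone was called higher among 11 tested in NT-D and 9 tested in NT-LW, and none was lower. A count of 1 is near the 9.74% and 10.8% of all genes called higher and says nothing about the set. The medians were 0.54 and 0.13. CCDC80, an extracellular matrix protein, was 0.484 in IV-D, 1.81 in NT-D and 0.949 in NT-LW. GADD45A, a stress-response protein, was 0.633, 1.88 and 2.02, and NT5E, the ecto-nucleotidase CD73, was 1.98, 3.58 and 4.64. RBMS3, an RNA-binding protein, was 5.00 in IV-D, with log2 differences of 0.88 and 0.60 that were not called, and LATS2, a kinase of the pathway and also a target, was 1.64, 0.897 and 0.521. CCN1, also a target, was 2.59-fold higher in NT-D (95% interval 1.68 to 4.06) and 1.71-fold in NT-LW (1.1 to 2.72). Differences of log2(FPKM + 1) understate changes at such low levels, so targets without a call can still differ by over 2-fold.
In 8-cell embryos 1 of 7 was higher and 1 lower in each clone group, with medians of 0.10 and 0.73, counts near the shares over all genes (10.8% and 16.3% higher, 17.4% and 17.3% lower). The lower one was MYOF (myoferlin, a membrane-repair protein), at 5.89 FPKM in IV-D, 1.21 in NT-D and 2.28 in NT-LW. The higher one was F3 (tissue factor) in NT-D, at 3.12 against 0.977 in IV-D, and GADD45A in NT-LW, at 4.41 against 1.65. In the upstream windows of all 22 listed targets 5 held the TEAD element, or 22.7%, and CCN2 was the only one with 3.

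**Figure D5:**
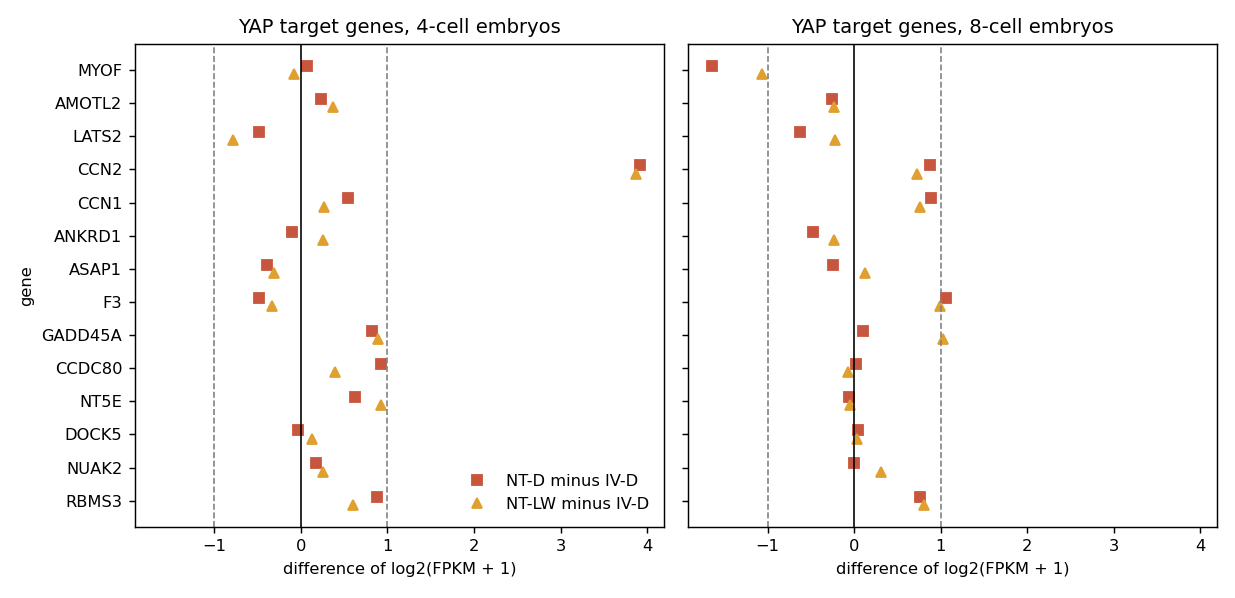
Difference of log2(FPKM + 1), clones minus IV-D, for the 14 YAP target genes in the table at the 4-cell stage (left) and the 8-cell stage (right), 1 point per gene and clone group, genes under 1 FPKM included. Dashed lines mark -1 and 1. At the 4-cell stage only CCN2 lies beyond them (3.92 and 3.87), and at the 8-cell stage MYOF lies below -1 in both groups.

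The other CCN genes, for related matricellular factors, were highest in IT of IV-D and had no call in 4-cell clones. The table holds 3 of the 6 family genes. CCN1, also a YAP target, was 0.403 FPKM in 4-cell IV-D, 1.04 in NT-D and 0.689 in NT-LW. Its highest level was 12.2 in IT of IV-D, against 3.86 in NT-D and 1.99 in NT-LW, which were 3.15-fold (2.81 to 3.54) and 6.1-fold lower (5.26 to 7.11). CCN3 was 7.15 in IT of IV-D, where TE had 0 fragments, against 0.151 and 0.0689 in IT of the clones. In 4-cell embryos the family count was 1 of 2 higher in NT-D and 1 of 1 in NT-LW, in each case CCN2. Over all genes 9.74% and 10.8% were called higher there. At the 8-cell stage none of 2 and of 3 was called.

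Of the receptors and partners of CCN2 5 of 13 listed are in the table, and an integrin chain was measured before CCN2 itself. ITGAV, an integrin subunit that binds CCN2, was 2.64 FPKM in the 2-cell, 6.78 in the 4-cell and 15.8 in the 8-cell IV-D library. ITGB1, the shared beta integrin chain, was 2.30 in 4-cell and 79.6 in 8-cell IV-D, a rise of 4.61 on the log2 scale. In 8-cell clones ITGB1 was 48.8 and 23.7, the latter called lower. ITGA6, the laminin receptor subunit, was higher in both 4-cell clone libraries, at 9.70 and 13.6 against 3.94. It was the 1 of 4 called in each, beside 9.74% and 10.8% of all genes called higher. FN1 (fibronectin) rose by 1.18 in IV-D between 4-cell and 8-cell embryos. In 8-cell embryos 0 of 4 in NT-D was called, and in NT-LW ITGA6 was higher and ITGB1 lower among 5. Over all genes 10.8% and 16.3% were called higher there, and 17.4% and 17.3% lower.
Of TGF-beta signalling genes, which can also induce CCN2, 3 of 9 are in the table. All 3 (TGFBR1, SMAD2 and SMAD4) rose in IV-D between 4-cell and 8-cell embryos, where 35.0% of all genes were called higher. The receptor TGFBR1 was 0.989 FPKM in 4-cell IV-D, 2.99 in NT-D and 3.40 in NT-LW. It was the only call of 3 and of 2 tested, beside 9.74% and 10.8% of all genes called higher. The signal transducer SMAD2 was 11, 17.5 and 20.7 there. At the 8-cell stage 0 of 3 in NT-D and 1 of 3 in NT-LW were higher, beside 10.8% and 16.3% of all genes. The latter was SMAD4, at 9.44 against 3.61.

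The Hippo kinases and adaptors changed in few cases. Of 10 listed 9 are in the table, and at the 4-cell stage none of 9 was called in either clone group, with medians of 0.05 and -0.07. In all 3 groups MOB1A, an adaptor of the LATS kinases, rose between 2-cell and 4-cell embryos, by 3.24, 2.81 and 2.89 on the log2 scale. At that step 3 of 9 were called higher in IV-D, beside 34.4% of all genes. LATS2 was called lower there in NT-D (-1.19) and NT-LW (-2.55) but not in IV-D (-0.17), and LATS1 in NT-LW (-1.19). From 4-cell to 8-cell IV-D embryos 4 of 9 were called lower, among them STK3 (-1.35), STK4 (-1.15) and MAP4K4 (-1.13), and none higher. The share of all genes called lower at this last step is not given here. At the 8-cell stage 1 of 8 was higher in NT-D and 2 of 8 in NT-LW, near the 10.8% and 16.3% of all genes, and none was lower. TAOK3, a kinase upstream of STK3 and STK4, was 3.19 FPKM in IV-D and higher by 1.16 in NT-D and 1.40 in NT-LW on the log2 scale. STK3 itself was 5.00, 8.63 and 17.2, and was called in NT-LW.
Of the upstream and junctional regulators 11 of 18 are in the table. At the 4-cell stage 1 of 9 in NT-D was lower and none higher, and in NT-LW 1 of 10 was lower and 1 higher. SIKE1, part of a phosphatase complex that restrains the kinases, was the lower one in both, at 9.19 in IV-D, 2.36 in NT-D and 1.71 in NT-LW. The higher one in NT-LW was RASSF1, a scaffold of STK3 and STK4, at 3.20 against 0.452. In 4-cell contrasts 13.2% of all genes in NT-D and 9.43% in NT-LW were called lower.
At the 8-cell stage 2 of 8 were higher and 3 lower in NT-D, and 1 higher and 3 lower of 8 in NT-LW. Over all genes 10.8% and 16.3% were called higher there, and 17.4% and 17.3% lower. WWC2, a relative of the scaffold KIBRA, was lower in both, at 17.4 in IV-D, 5.70 in NT-D and 4.62 in NT-LW. AMOT (angiomotin), which holds YAP1 at junctions, was 4.29, 1.64 and 1.51, called lower in both. FRMD6, a FERM-domain protein, was 1.75, 6.19 and 9.10, called higher in both, and RASSF1 was 1.24, 5.94 and 2.43, called higher in NT-D.

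Trophectoderm genes, several of which act downstream of TEAD4 in the mouse, and polarity genes, which set the pathway by cell position, were partly lower in 8-cell clones. Of 18 trophectoderm markers 9 are in the table. Of 7 tested, 4 were lower in NT-D, and 5 were lower and 1 higher in NT-LW, with medians of -1.31 and -1.27. Over all genes 17.4% and 17.3% were called lower there, and 10.8% and 16.3% higher. KLF5, a transcription factor of early trophectoderm, was 27.1 FPKM in IV-D, 7.91 in NT-D and 7.39 in NT-LW. DAB2, an endocytic adaptor, was 3, 0.418 and 0.657, GRHL2 was 4.05, 1.03 and 1.02, and KRT18 was 2.21, 0 and 0.187. DAB2 and KRT18 reached 1 FPKM in IV-D alone at this stage, so they could only be called lower. Among 4-cell embryos 1 of 6 was higher and 1 lower in each clone group. Over all genes 9.74% in NT-D and 10.8% in NT-LW were called higher there, and 13.2% and 9.43% lower. GATA3, a trophectoderm factor and TEAD4 target in mouse, was the higher one, at 0.437 in IV-D, 3.18 in NT-D and 3.48 in NT-LW, and TFAP2C the lower one, at 25.6, 5.23 and 7.30.
Of the polarity and adhesion genes, 10 of 15 in the table, 6 of 10 were lower in 8-cell NT-D and 4 of 10 in NT-LW, beside the same 17.4% and 17.3% of all genes, and none was higher. The tight-junction gene CLDN6 was 57.9 FPKM in IV-D, 1.18 in NT-D and 1.23 in NT-LW. CTNNA1 (alpha-catenin) was 12.9, 2.84 and 2.12, PARD6B, a polarity protein, was 62.2, 21.4 and 27.4, and CLDN4 was 3.26, 0.207 and 0.210. CLDN4 was likewise tested only through IV-D. At the 4-cell stage 1 of 9 was higher and 3 lower in each, where 13.2% and 9.43% of all genes were called lower, and 9.74% and 10.8% higher.
Inner cell mass markers, 5 of 10 in the table, had 1 of 4 higher and 1 lower in 4-cell NT-D, and 2 higher and 1 lower of 4 in NT-LW. The shares over all genes were 9.74% and 10.8% higher, and 13.2% and 9.43% lower. NANOG, a pluripotency factor, was the lower one, at 268.9 FPKM in IV-D, 56.4 in NT-D and 130.4 in NT-LW. At the 8-cell stage 0 of 4 was called in NT-D. In NT-LW 2 of 4 were lower, NANOG and GDF3, beside 17.3% of all genes.

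Over the 23 libraries TEAD4 and CCN2 did not share a pattern, with Pearson's r of 0.305 and Spearman's rho of 0.427 for log2(FPKM + 1). These correlations are descriptions across libraries that share stage and depth, and genes ranked by them share the pattern by choice. Of 6733 genes ranked, those most like TEAD4 were PDXK (pyridoxal kinase), with r of 0.972, and DDX56 (an RNA helicase), MRPL12 (mitochondrial ribosome), TRMT1 and QTRT1 (tRNA modification), each with r of 0.967. In 8-cell embryos PDXK was 158.3 FPKM in IV-D, 21.5 in NT-D and 11.1 in NT-LW. DDX56 was 14.2, 5.12 and 3.84 there, beside 14.5, 3.17 and 1.15 for TEAD4.
The genes most like CCN2 were NR5A2 (an orphan nuclear receptor), with r of 0.941, MAK (a kinase of germ cells), 0.896, TLR3 (a sensor of double-stranded RNA), 0.893, NKX2-2 (a homeobox factor), 0.891, and HSH2D (an adaptor protein), 0.882. They appeared at the 4-cell stage and were lower in IT and TE than in the 8-cell embryos of the same group, a course given by their choice. Their 4-cell levels differed less between groups than that of CCN2. NR5A2 was 4.46 FPKM in IV-D, 4.89 in NT-D and 7.98 in NT-LW, and HSH2D was 11.8, 8.41 and 14.2.

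Ordered by level, the highest TEAD4 libraries were the NT-D morula at 19.2 FPKM, the IV-D morula at 16.2 and the 8-cell IV-D embryo at 14.5, and the lowest was the 2-cell NT-D embryo at 0.0666. In that order 17 of 22 neighbouring pairs had overlapping 95% counting intervals. The highest CCN2 libraries were the 4-cell NT-D embryo at 65.0, the 4-cell NT-LW embryo at 62.8 and the 8-cell NT-D embryo at 62.7, and 14 of 22 neighbouring pairs overlapped. Of 46 comparisons between successive stages, blastocyst parts and groups, TEAD4 was called in 13 and CCN2 in 21. Total depth was 14952784 to 22991067 fragments per library.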

How the data were processed

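RNA of 23 pools of oocytes or embryos was reverse transcribed and amplified with SMART-Seq v4 by the authors, and libraries were sequenced as read pairs. Per the study's methods and the submitters' processing notes, reads were aligned to Sscrofa11.1 with Hisat2 2.0.4 and counted per Ensembl gene with HTSeq 0.9.1. The deposited FPKM values (fragments per kilobase, scaled to depth) were made by the authors, for 8603 genes. The deposited file's name marks them as differentially expressed genes, so that shares refer to this table. No column of samples was left unused (0).

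The size of the smallest FPKM step gave whole fragment numbers for 100% of genes, with a largest deviation of 0.00039 of a fragment. This fixed gene lengths and a depth of 14952784 to 22991067 fragments per library, of which 82.8% to 97.2% fell on genes of the table. The method and the calls were tested on simulated data. Differences were taken on log2(FPKM + 1), which understates changes of low genes. A call needed a difference over 1 and FPKM of at least 1 in one of both libraries. A gene under 1 FPKM in one library was thus tested only through the other, and could be called in 1 direction only. Ratios were given with exact conditional binomial (Clopper-Pearson) and levels with exact Poisson 95% intervals on fragments. They cover counting error, not variation between embryos, and amplified fragments are not independent molecules. A count of 0 was given the limit of 3 fragments. No model across genes was fitted, because each condition had 1 library.

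TEAD4, CCN2 and 12 gene lists were chosen with earlier results of these data known. Named are all table members of the TEAD and CCN lists, of each other list up to 4 with the largest difference in the comparison described (or those called), and the 5 genes most alike by Pearson's r among named genes that reached FPKM 5 in a library. Gene positions and the upstream window of 250 bases were read from the Sscrofa11.1 genome with its RefSeq annotation. A planned comparison of TEAD proteins was not run. Alternatives were a pseudocount of 0.1, median-ratio scaling, FPKM brought to a sum of 1000000 per library, a minimum FPKM of 5 or none, and an interval wholly beyond 2-fold. Scripts used scipy 1.17.1, pandas 2.3.3 and numpy 2.4.6 under Python 3.11.15, and plots matplotlib 3.10.9.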

Additional observations from a re-analysis of the deposited data

Results flagged for a closer look

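CCN2 moved in opposite directions between morula and IT in the fertilized and the cloned embryos. The log2 difference was 1.07 in IV-D, from 500 to 1063 fragments, -1.97 in NT-D, from 674 to 121, and -3.87 in NT-LW, from 1573 to 39. Each group has 1 library per stage, and the difference between groups was not tested.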

How the results depend on the processing

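TEAD4 was called in 13 and CCN2 in 21 of 46 comparisons, and each count (of calls, not of which calls) stayed within 1.5 times under each alternative run. No difference of either gene reversed its sign while called. With a pseudocount of 0.1, TEAD4 from 4-cell to 8-cell in IV-D was 3.02, CCN2 from TE to IT in IV-D 5.45, CCN2 in 4-cell NT-D and NT-LW against IV-D 4.23 and 4.18, and TEAD4 in 8-cell NT-D and NT-LW against IV-D -2.16 and -3.54. With rescaling to a sum of 1000000 the last pair became -2.25 and -3.35, and CCN2 from TE to IT in IV-D 4.04. With median-ratio scaling TEAD4 from 4-cell to 8-cell in IV-D was 2.16 and in 8-cell NT-D against IV-D -1.68. These moved by construction of the scale, and all remained called. Median-ratio scaling brought the median of all genes in the morula to IT step from -0.64 to -0.07 in NT-D and from -0.51 to -0.03 in NT-LW. Of 48 list counts, 16 moved over 1.5 times with a minimum FPKM of 5, 14 with the small pseudocount and 0 without a minimum. With the interval beyond 2-fold 10 moved, with median-ratio scaling 8 and with rescaling 7. Differences of TEAD4 and CCN2 moved beyond their counting error in 56 cases with the small pseudocount, 45 with rescaling and 33 with median-ratio scaling. They stayed within it in 36, 47 and 59. Of the 5 genes most like TEAD4, 1 stayed among the first 5 by Spearman's rho and 3 without the oocytes, and of those like CCN2 3 and 4. No library could be left out, since each condition had 1. No paired analysis was possible because no group had a second library of any stage in the table. Depth limits low values, since up to the 2-cell stage TEAD4 rests on 3 to 27 fragments and CCN2 on 0 to 65, and CCN2 in TE on 3 to 72.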
